A study of Mus musculus with 6 samples.

Results

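The miR-15/16 family was read here as 8 mature mouse microRNAs, of which miR-16-2-3p is an opposite hairpin arm that lacks the family's seed. They are mmu-miR-15a-5p, mmu-miR-15b-5p, mmu-miR-16-5p, mmu-miR-16-2-3p, mmu-miR-195a-5p, mmu-miR-322-5p, mmu-miR-497-5p and mmu-miR-503-5p, written below without the species prefix mmu. They were 8 of the 1900 mouse miRNA probes of the array. Of these, 7 were found by name, and miR-497-5p was found as miR-497a-5p, the 5p product of the RefSeq gene Mir497. All 8 gave a signal above the blank spots on all 6 arrays, as did 663 other probes. The number of probes above the blanks varied from 751 to 1855 per array.

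Adherent bone marrow-derived progenitor cells from adult male db/db mice, which are homozygous for the db mutation of the leptin receptor gene Lepr and have type 2 diabetes, were compared with cells from db/+ mice of the same colony. The control mice also carried a db allele, so neither group was wild type. Marrow mononuclear cells of both groups grew for 4 days in EGM-2, a medium for endothelial cells, were washed free of non-adherent cells and grew for 3 more days, and no other agent is named. There were 3 arrays per group, hybridised with Cy5-stained total RNA, and the labels do not say whether each RNA came from a separate animal, so p-values measure only the spread between these samples. The study's title concerns IRE1α, a sensor of endoplasmic reticulum stress that also cuts RNA, in diabetic wound healing. On these arrays the cells differed by mouse genotype alone, as far as the labels say.

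MicroRNAs guide Argonaute proteins to messenger RNAs, chiefly by pairing of the seed near their 5′ end, and lower the output of those messages. The 5p members of this family share most of that seed. They are known for restraining the cell cycle through cyclins D and E and their kinases, for lowering the survival factor BCL2, and for lowering VEGF, the growth factor that drives new vessel formation. The hairpins lie in pairs in the genome, and the members of a pair are known to be transcribed together.

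The mature sequences are shown because they define the family and show how alike the probes' targets are. They are the target sequences of the deposited array files, written 5′ to 3′ with bases 2 to 8, the seed, in capitals. Each was identical to the RefSeq entry, from which the positions on build GRCm38.p6 come.
miR-15a-5p: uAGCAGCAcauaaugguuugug
miR-15b-5p: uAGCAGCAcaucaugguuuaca
miR-16-5p: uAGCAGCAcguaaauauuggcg
miR-195a-5p: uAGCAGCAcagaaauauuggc
miR-322-5p: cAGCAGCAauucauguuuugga
miR-497a-5p: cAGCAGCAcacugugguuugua
miR-503-5p: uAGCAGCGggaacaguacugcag
miR-16-2-3p: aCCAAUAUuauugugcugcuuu

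Thus 6 members carried the seed AGCAGCA. miR-503-5p carried AGCAGCG and shared only bases 2 to 7 with them. miR-16-2-3p, the opposite arm of a miR-16 hairpin, carried the unrelated seed CCAAUAU. miR-16-5p and miR-195a-5p had the same base at 19 of 21 positions, and miR-15a-5p and miR-15b-5p at 18 of 22. Whether RNA of one member also bound the probe of another was not tested.

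The members come from 4 clusters. miR-15a-5p lies at chr14:61632075-61632096 on the minus strand, with a copy of miR-16-5p at chr14:61631936-61631957, and RefSeq places both genes within the span of the lncRNA gene Dleu2. miR-15b-5p lies at chr3:69009775-69009796 on the plus strand, beside the second copy of miR-16-5p at chr3:69009918-69009939 and miR-16-2-3p at chr3:69009960-69009981, within the span of Smc4, which encodes a condensin subunit. miR-497a-5p lies at chr11:70234730-70234751 and miR-195a-5p at chr11:70235062-70235082, both on the plus strand and in the span of no annotated host gene in the table used. miR-322-5p lies at chrX:53054306-53054327 and miR-503-5p at chrX:53054027-53054049, both on the minus strand within the span of the lncRNA gene C430049B03Rik. The miR-16-5p probe therefore reads both the chromosome 14 and the chromosome 3 locus, whereas miR-16-2-3p comes from the chromosome 3 locus alone.

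The 2 hairpins of the chromosome 3 cluster are shown. They hold the member whose groups did not overlap after normalization, and the pair of arms that moved most closely together across arrays. The capitals mark the mature arms, the 5p arm first.
Mir15b, chr3:69009772-69009835, plus strand: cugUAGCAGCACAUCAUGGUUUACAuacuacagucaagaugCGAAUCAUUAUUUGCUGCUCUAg
Mir16-2, chr3:69009902-69009996, plus strand: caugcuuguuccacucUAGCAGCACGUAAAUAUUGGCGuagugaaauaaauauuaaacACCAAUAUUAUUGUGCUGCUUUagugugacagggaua

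The arrays differed in general brightness. The median scanner signal over the miRNA probes lay between 49.5 and 104 intensity units, the blank spots' median between 39.1 and 97.2, and the number of probes above the blanks between 751 and 1855 per array. Both spots of a probe correlated between 0.983 and 0.989 on the log2 scale. The control probes named PUC2PM-20B and a3-PUC2PM-20B, called spike controls here, split the arrays across the groups: by their mean log2 value, the bright set held replicates 1 and 2 of the controls with replicate 2 of db/db, and the dim set held replicate 3 of the controls with replicates 1 and 3 of db/db. In the authors' deposited table the a3-PUC2PM-20B probe read 25017 to 29937 on the bright arrays and 7732 to 18873 on the dim ones. The PUC2PM-20B probe alone did not separate the sets, at 25083 to 29625 on the bright and 15136 to 25444 on the dim arrays. This split was chosen with results of these data known, and each within-set difference below rests on 1 array in an arm.

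Marker miRNAs of other cells were read alongside. The stromal markers, which mark fibroblast-like and smooth muscle cells, were above the blanks on all arrays for 5 of 5 probes. Their summed normalized intensity was 13565 to 17700 in db/+ and 7709 to 13221 in db/db. None of these 5 probes passed, each with an adjusted p of 0.89 by limma. The groups did not overlap in 1 of them, miR-214-3p, with db/db lower, as in 5.59% of all tested probes. The haematopoietic markers were above the blanks on all arrays for 3 of 5 probes, with sums of 6872 to 16255 in db/+ and 13154 to 18973 in db/db. Being of linear values, these sums rest mostly on miR-223-3p, at 12.6 to 14.0 on the log2 scale. The next brightest, miR-142a-5p, read 8.81 to 11.0. None of the haematopoietic markers passed: miR-142a-3p (0.95), miR-142a-5p (0.68) and miR-223-3p (0.55) were above 0, and miR-155-5p (-0.50) and miR-150-5p (-0.14) below. The latter, miR-155-5p and miR-150-5p, were above the blanks on 5 and 3 arrays. Of 3 erythroid markers only miR-451a was above the blanks on all arrays, and it differed by -0.60 (SE 0.79). The endothelial miR-126a-3p read 15.6 to 35.7 times the blank median, whereas miR-126a-5p was above the blanks on 1 array only. Of the epithelial markers, 0 of 5 were above the blanks on all arrays. Among miRNAs of tissues that the culture should lack, the muscle miRNA miR-206-3p was above the blanks on all arrays and miR-1a-3p on none. The part of these differences in the family's values was not tested.

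Across the 8 members, 4 were higher and 4 lower in db/db than in db/+, and none passed the test; of all tested probes 45.7% were higher and 54.3% lower. The median difference was 0.0033 on the log2 scale, beside -0.02 over all 1181 tested probes, and single members ranged from -0.48 to 0.60. At an adjusted p threshold of 0.05 limma called 0 of the 1181 probes, or 0%, and it gave an unadjusted p under 0.05 to 59 of them, or 5.0%, with db/db lower in 2.12% and higher in 2.88%. Among the members 1 had an unadjusted p under that threshold, miR-16-2-3p. In 1 member, again miR-16-2-3p, the groups did not overlap in normalized intensity and db/db was lower. Such separation with db/db lower was seen in 5.59% of the tested probes, with db/db higher in 4.06%, and in either direction in 9.65%. A difference larger than the larger group SD was found in 1 member, also miR-16-2-3p, beside 22.9% of all tested probes. Among the 7 5p members alone, 4 were higher and 3 lower in db/db, with a median difference of 0.07. Of these 7, 0 had an unadjusted p under 0.05 by limma and 0 had groups without overlap. A difference larger than the larger group SD was likewise found in 0 of them. In RNA from a whole culture, fewer cells of a type and less RNA per cell cannot be told apart.

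**Figure D1:**
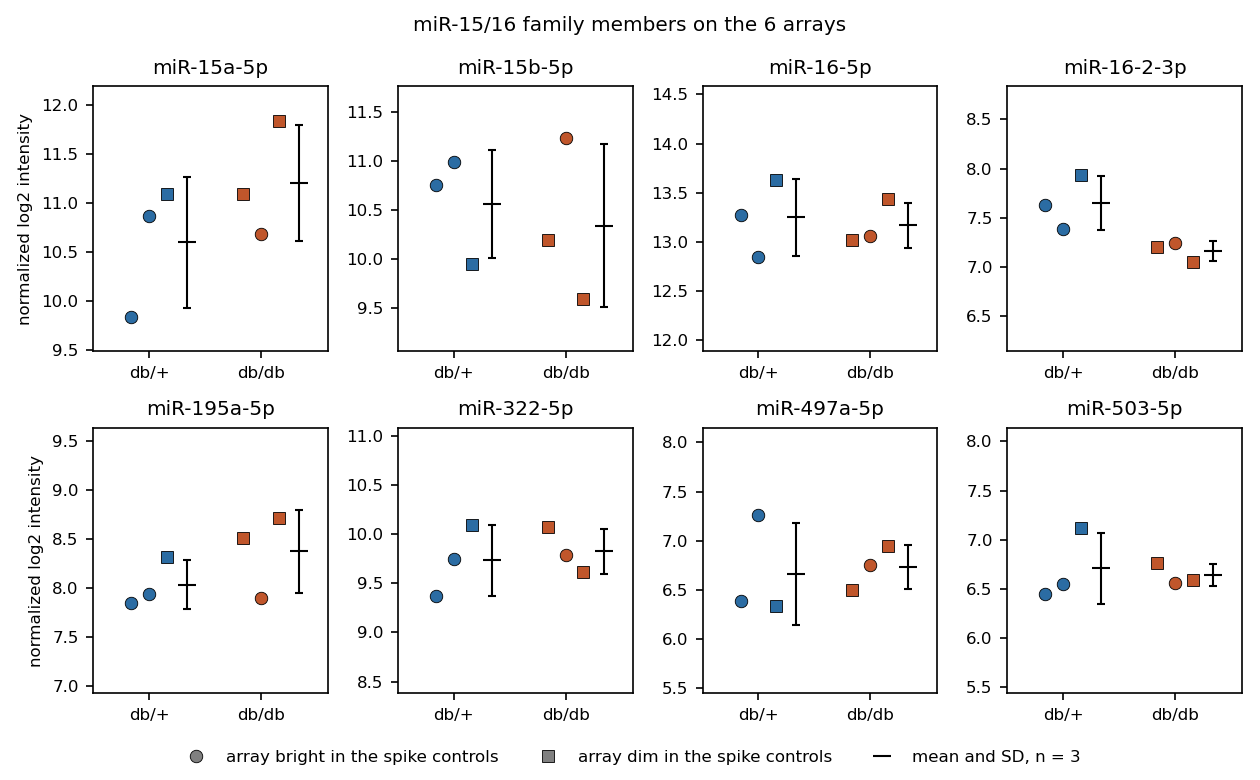
Normalized log2 intensity of each family member on the 6 arrays, db/+ in blue and db/db in orange, with each panel's axis spanning the same number of log2 units. Circles are arrays bright and squares arrays dim in the spike controls, the horizontal bars with whiskers are the group mean and SD (n = 3), and only miR-16-2-3p shows groups that do not overlap.

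miR-16-2-3p, the 3p arm of the Mir16-2 hairpin shown above, had the largest difference toward lower values in db/db. Its normalized log2 intensity was 7.63, 7.38 and 7.93 in db/+ replicates 1 to 3 and 7.20, 7.25 and 7.05 in db/db replicates 1 to 3. Every db/db array lay below every db/+ array. The group means were 7.65 ± 0.28 (SD, n = 3) and 7.16 ± 0.10 (SD, n = 3). The difference was -0.48 on the log2 scale (SE 0.17, 95% interval -0.89 to -0.08), a linear ratio of 1.40 in favour of db/+. By limma its unadjusted p was 0.025 and its adjusted p 0.89 over all tested probes, so the difference did not pass. In the authors' deposited table the probe read 121, 87.7 and 155 in db/+ and 72.0, 80.4 and 58.8 in db/db, again with no overlap. The scanner signals before normalization did overlap, at 287, 174 and 101 in db/+ and 115, 138 and 120 in db/db. As multiples of the blank median the groups also overlapped, at 2.58 to 2.95 in db/+ and 1.64 to 2.61 in db/db. The probe was dim, at 1.64 to 2.95 times the blank median, and the difference was -0.90 when the blank median was subtracted in place of the normexp correction. It was -0.26 within the bright arrays and -0.81 within the dim arrays. The stromal markers, whose 5 tested probes differed by a median of -0.50 with 5 of 5 below 0, were read on the same arrays, and their part was not tested.

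miR-16-5p, the other arm of the same hairpin and the product also of the chromosome 14 locus, differed by less than its spread between arrays. It was read far above background on all arrays, at 127 to 175 times the blank median. Its normalized log2 intensity was 13.28, 12.84 and 13.63 in db/+ and 13.02, 13.06 and 13.43 in db/db. All 3 db/db values lay inside the range of the db/+ values. The difference was -0.08 (SE 0.23, 95% interval -0.62 to 0.46, adjusted p = 0.96 by limma). This interval holds changes from 1.53 times lower to 1.38 times higher in db/db. Within the bright arrays the difference was -0.00096, and within the dim arrays it was -0.40.

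miR-15b-5p, the chromosome 3 partner of miR-16-2-3p, varied more among arrays than between groups. Its normalized log2 intensity was 10.75, 10.99 and 9.95 in db/+ and 10.20, 11.23 and 9.59 in db/db. The highest and the lowest array both belonged to db/db. The difference was -0.22 (SE 0.45, 95% interval -1.29 to 0.84, adjusted p = 0.94 by limma). Its 3 bright arrays all lay above its 3 dim arrays, by 1.08 on the log2 scale, and bright arrays were higher without overlap in 13.0% of the tested probes. Within the bright arrays db/db was 0.36 higher and within the dim arrays it was -0.05. The scanner signals were 2516, 2520 and 397 in db/+ and 792, 2876 and 846 in db/db, so for this probe the split was present before any normalization. One array, db/db replicate 1, also had the members' largest disagreement between the 2 spots of a probe here, a ratio of 1.5, beside a median of 1.15.

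miR-15a-5p, the chromosome 14 partner of miR-16-5p, had the largest difference toward higher values in db/db. Its normalized log2 intensity was 9.84, 10.87 and 11.09 in db/+ and 11.09, 10.68 and 11.84 in db/db. The lowest array was db/+ replicate 1 and the highest db/db replicate 3, and the groups overlapped. The means were 10.60 ± 0.67 and 11.20 ± 0.59 (SD, n = 3 each). The difference was 0.60 (SE 0.40, 95% interval -0.35 to 1.56, adjusted p = 0.89 by limma), which is smaller than the SD of the db/+ group. Leaving out db/+ replicate 1 gave 0.22, and leaving out db/db replicate 3 gave 0.29. Its bright arrays all lay below its dim arrays, by 0.88 on the log2 scale, as in 7.71% of the tested probes, and the group difference was 0.33 within the bright and 0.37 within the dim arrays. Of 663 other probes, the one most like it across the 6 arrays was miR-142a-5p, a miRNA of blood cells, whose own difference was 0.68 (SE 0.43). The bright arrays of miR-142a-5p also all lay below its dim arrays (bright minus dim -0.96). Of the blood-cell markers given above, the 3 above the blanks on all arrays were higher in db/db. The lower ones, miR-155-5p and miR-150-5p, were above the blanks on 5 and 3 arrays. The parts of blood-cell RNA and of the brightness split in the values of miR-15a-5p were not tested.

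**Figure D2:**
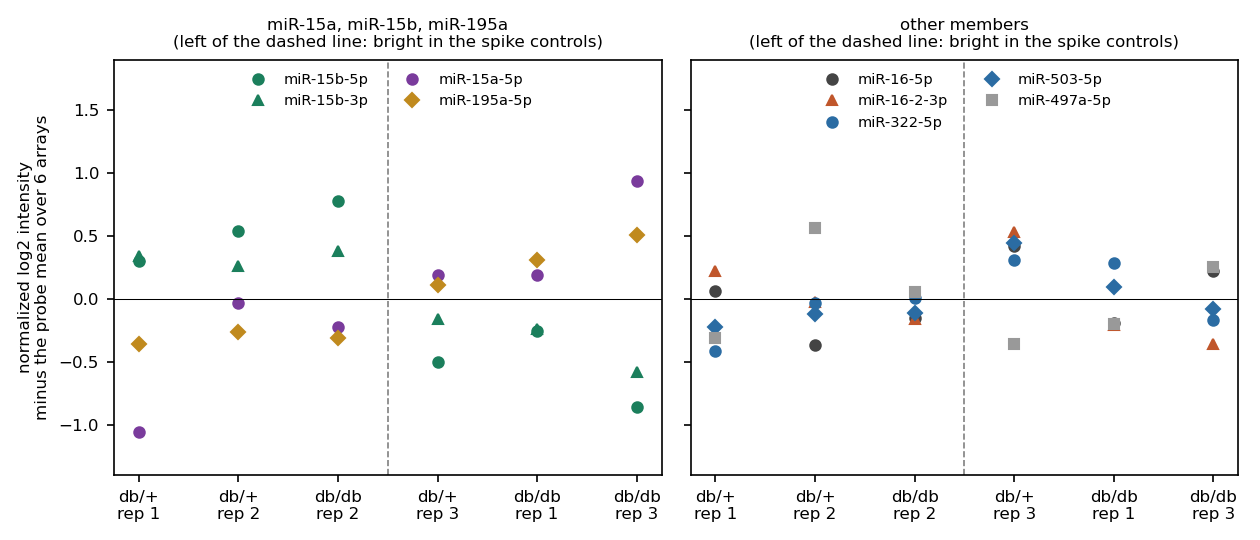
Normalized log2 intensity of each member minus that probe's mean over the 6 arrays, with the 3 arrays bright in the spike controls to the left of the dashed line and the 3 dim arrays to the right. miR-15b-5p and miR-15b-3p sit above 0 on the bright arrays and below 0 on the dim arrays, whereas miR-15a-5p and miR-195a-5p run the other way.

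The chromosome 11 cluster holds miR-195a-5p, known in mouse heart for halting cardiomyocyte division after birth, and miR-497a-5p. For miR-195a-5p the normalized log2 intensity was 7.84, 7.94 and 8.32 in db/+ and 8.51, 7.90 and 8.71 in db/db. Replicates 1 and 3 of db/db were above every db/+ array, and db/db replicate 2 lay among them. The difference was 0.34 (SE 0.24, 95% interval -0.23 to 0.91, adjusted p = 0.89 by limma). The bright arrays were all lower than the dim ones, by 0.62. Within the bright arrays the group difference was 0.0032, and within the dim arrays it was 0.30. This probe's target differs from miR-16-5p at 2 of 21 positions, and binding of either RNA to the other's probe was not tested. Across the 6 arrays miR-195a-5p correlated at 0.42 with miR-16-5p and at 0.86 with miR-15a-5p.

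miR-497a-5p was near the limit of the array. It read 1.08 to 2.48 times the blank median, and its normalized log2 intensity was 6.38, 7.26 and 6.34 in db/+ and 6.50, 6.75 and 6.95 in db/db. The highest array, db/+ replicate 2, stood alone, and the db/db values fell between it and the other db/+ arrays. The difference was 0.07 (SE 0.27, 95% interval -0.57 to 0.72, adjusted p = 0.96 by limma). It was -0.06 without db/+ replicate 1 and 1.06 with the blank median subtracted.

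The X chromosome cluster holds miR-322-5p, the mouse counterpart of human miR-424, and miR-503-5p, known in human and mouse endothelium for slowing growth under diabetic conditions. miR-322-5p read 9.87 to 17.0 times the blank median. Its normalized log2 intensity was 9.37, 9.75 and 10.09 in db/+ and 10.07, 9.79 and 9.62 in db/db. All db/db values lay inside the db/+ range. The difference was 0.09 (SE 0.22, 95% interval -0.43 to 0.60, adjusted p = 0.96 by limma).

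miR-503-5p was dim on every array, at 1.13 to 1.98 times the blank median. Its normalized log2 intensity was 6.45, 6.55 and 7.12 in db/+ and 6.77, 6.56 and 6.59 in db/db, with the highest value on db/+ replicate 3 and db/db inside the range of db/+. The difference was -0.07 (SE 0.20, 95% interval -0.54 to 0.40, adjusted p = 0.96 by limma), and it was 0.15 without db/+ replicate 3. With the blank median subtracted in place of the normexp correction with its offset of 50, the difference of miR-503-5p was 0.027.

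**Figure D3:**
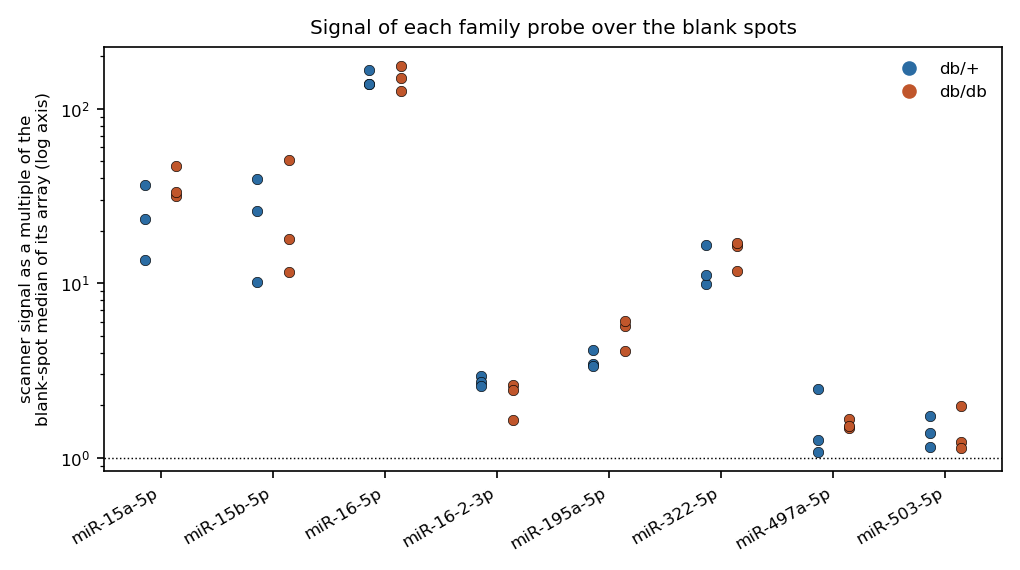
Scanner signal of each member divided by the median of the blank spots of the same array, on a log axis, with 1 point per array, db/+ in blue and db/db in orange and the dotted line at the blank median. miR-16-5p lies at 127 to 175 times the blanks on all arrays and miR-497a-5p and miR-503-5p reach down to 1.08 and 1.13 times; probes bind with different strength, so points are comparable within a probe only.

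The members were also read by spike set. This split was chosen with results of these data known, so its counts cannot be ranked against those by genotype. By normalized intensity the bright and dim arrays did not overlap in 4 of 8 members, with bright arrays higher in miR-15b-5p and lower in miR-15a-5p, miR-195a-5p and miR-503-5p. In scanner signal before normalization only miR-15b-5p of these kept the sets apart. The sets then overlapped in miR-15a-5p (bright 1322 to 2337, dim 913 to 3404), miR-195a-5p (230 to 333 and 131 to 441) and miR-503-5p (69.7 to 111 and 67.9 to 87.3). Over all tested probes the spike sets did not overlap in 20.7% by normalized intensity, and the genotype groups did not overlap in 9.65%. The members' values spanned a median of 0.88 log2 units over the 6 arrays, beside 0.60 over all tested probes. What sets the arrays apart was not tested.

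The members of a pair of neighbouring hairpins were compared within each array, as the log2 difference of one probe from its partner, which asks whether the partners differ between the groups by unequal amounts. This within-array difference was 0.68 higher in db/db for miR-15a-5p relative to miR-16-5p, 0.26 higher for miR-15b-5p relative to miR-16-2-3p, 0.27 higher for miR-195a-5p relative to miR-497a-5p and 0.16 higher for miR-322-5p relative to miR-503-5p. In all 4 pairs the groups overlapped. By a two-sided exact permutation test the p-values were 0.2, 0.8, 0.6 and 0.2, and 0.4, 0.8, 0.8 and 0.4 after Benjamini-Hochberg adjustment over the 4 pairs. With 3 arrays against 3 the smallest p this test can give is 0.1.

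Across the 6 arrays the members did not move as 1 block. The profiles of miR-15b-5p and its 3p arm correlated at a Pearson r of 0.95. Those of the X chromosome partners miR-322-5p and miR-503-5p correlated at 0.83. The other neighbouring pairs gave 0.24 (miR-15a-5p and miR-16-5p), 0.024 (miR-15b-5p and miR-16-2-3p) and -0.035 (miR-195a-5p and miR-497a-5p). miR-15b-5p ran against miR-195a-5p, at -0.91, and against miR-15a-5p, at -0.70. These values describe 6 arrays that share a platform, a normalization and the brightness split above, and they carry no test. Of the 663 other probes above the blanks on all arrays, the 5 most like the mean profile of the family were miR-199b-5p (r 0.95), miR-221-3p (0.95), miR-6395 (0.93), miR-542-3p (0.92) and miR-19a-3p (0.92). The single probe most like each further member was let-7k for miR-15b-5p (0.97), miR-378b for miR-16-5p (0.93), miR-151-5p for miR-16-2-3p (0.99), miR-30a-5p for miR-195a-5p (0.99), miR-6942-5p for miR-322-5p (0.94), miR-7041-3p for miR-497a-5p (0.99) and miR-194-5p for miR-503-5p (0.97). Taking the highest of 663 values over 6 arrays by itself favours high r, so these values are no sign of shared regulation.

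The opposite arms of the same hairpins were read by probes of their own. Across the 6 arrays the 5p and 3p arms correlated at -0.63 for miR-15a, -0.48 for miR-195a, 0.035 for miR-322 and 0.16 for miR-497a. The values were 0.43 for miR-503, 0.40 for miR-16-5p with miR-16-1-3p, 0.48 for miR-16-5p with miR-16-2-3p and 0.95 for miR-15b. Of the 7 further 3p arms on the array 6 were tested, none passed, and 5 of the 6 were lower in db/db, with a median difference of -0.13; 54.3% of all tested probes were lower. miR-322-3p had the largest of these differences, -0.40 (SE 0.26, adjusted p = 0.89 by limma), and miR-15b-3p followed with -0.29 (SE 0.27, adjusted p = 0.89 by limma). The bright arrays read miR-15b-3p higher than the dim arrays by 0.65, without overlap, the same direction as its 5p arm. miR-16-1-3p, the 3p arm from the chromosome 14 miR-16 hairpin, differed by 0.02 (SE 0.22), beside -0.48 for miR-16-2-3p from chromosome 3. These are separate probes, and the difference between them was not tested. miR-15a-3p (-0.08), miR-195a-3p (-0.12) and miR-503-3p (-0.14) lay between them, and miR-497a-3p was above the blanks on 1 array only. The lettered probes miR-195b and miR-497b were above the blanks on 2 arrays each and were not tested. miR-497b is no copy of miR-497a-5p. It lies at chr11:70234763-70234786 on the minus strand, overlapping the position of miR-497a-3p on the plus strand, and carries the seed ACCACAG.

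**Figure D4:**
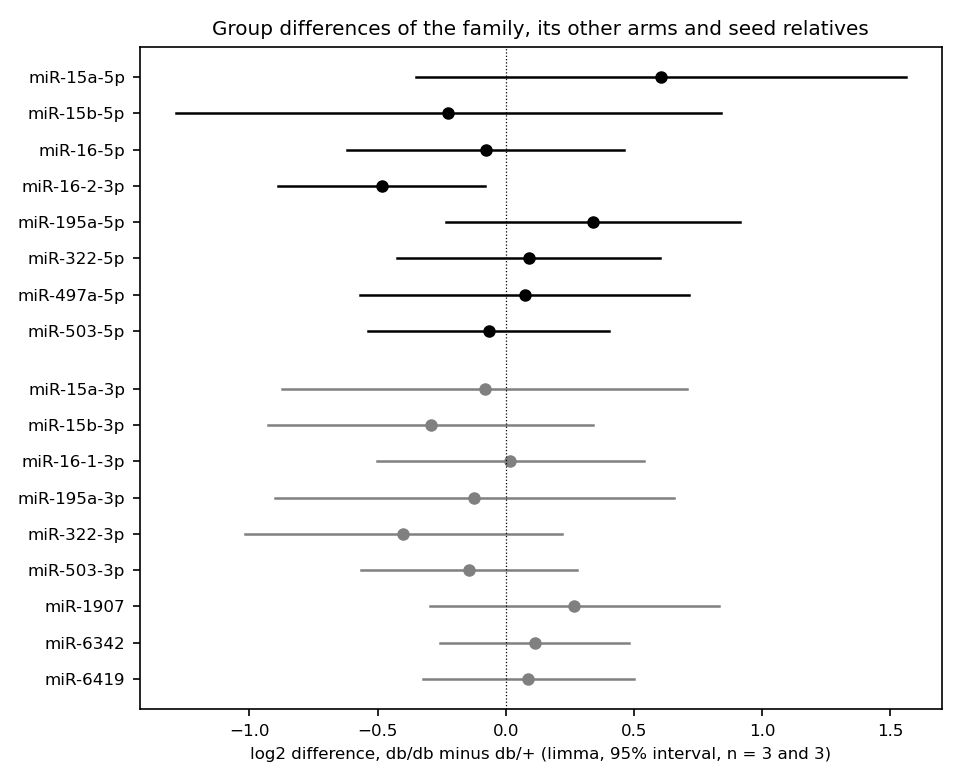
Log2 difference between db/db and db/+ for the 8 members (black) and for the tested 3p arms and seed relatives (grey), with the 95% interval from limma (n = 3 and 3). Every interval crosses 0 except that of miR-16-2-3p, whose adjusted p was 0.89.

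The family's bases 2 to 7 were found at the same place in 12 of the 1900 target sequences of the array, or 0.632%, and 11 of these matched through base 8. The 5 that are no members were miR-195b, miR-1907, miR-6342, miR-6353 and miR-6419. Of these 3 were tested, with differences of 0.27 for miR-1907 (SE 0.24), 0.11 for miR-6342 and 0.09 for miR-6419. All 3 lay above 0, as did 45.7% of all tested probes, and none passed. miR-6342 was above the blanks on 3 arrays, at 0.78 to 1.36 times the blank median. miR-6419 was above them on 4 arrays, at 0.93 to 1.54 times, so both were near the limit of the array.

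Other miRNAs that are known to act on the cell cycle or on vessels were read in the same fit, and none of them passed either. Beside the counts below, 45.7% of all tested probes were higher and 54.3% lower in db/db, with a median of -0.02. The lists hold several miRNAs of the same family or cluster, so their counts are not of independent miRNAs, and they carry no test. Of 18 miRNAs known for restraining the cell cycle, the let-7, miR-34, miR-26, miR-29 and miR-24 families, 12 were higher and 6 lower in db/db, with a median of 0.14; let-7e-5p differed by 0.43 (SE 0.25) and miR-29b-3p by 0.88 (SE 0.53). Of 12 miRNAs known for promoting proliferation, 2 were higher and 10 lower, with a median of -0.29. The lowest of these was miR-92a-3p, of the miR-17 to miR-92 cluster, at -0.86 (SE 0.21, adjusted p = 0.75 by limma), and all its db/db arrays lay below its db/+ arrays; miR-18a-5p of the same cluster differed by -0.45. Of 11 miRNAs known for promoting vessel growth 10 were tested, with 3 higher and 7 lower and a median of -0.12; miR-130a-3p differed by -0.53 and miR-378a-3p by -0.29. Of 9 known for restraining vessel growth, of which 5 (miR-92a-3p, miR-221-3p, miR-222-3p, miR-34a-5p and miR-26a-5p) are also counted in the lists above, 2 were higher and 7 lower, with a median of -0.21, and miR-214-3p, which is also one of the stromal markers, differed by -0.59.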

How the data were processed

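The scanner files of the 6 arrays give a linear intensity for each spot and no local background, per the file headers. A deposited table of intensity values per probe, scaled by the authors in a way not given in the sources used here, served as an alternative. Labelling and hybridisation were done by a service provider from 1 µg total RNA, per the labels' protocols.

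Spots were background-corrected with normexp (offset 50), the 3800 miRNA spots were quantile-normalized and put on the log2 scale, and both spots of a probe were averaged, with limma 3.58.1 in R 4.3.3. Probes brighter than the 95th percentile of the 4 blank spots were called above the blanks, and those above them on 3 or more arrays were tested. All 6 arrays entered 1 lmFit and eBayes fit of group, and p-values were adjusted by Benjamini-Hochberg over the 1181 tested probes. The number of arrays limits the precision. Fits were tested on simulated data.

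The members, lists, markers and tests were chosen with earlier results of these data known. Named besides all members were the other arms, the lettered probes miR-195b and miR-497b, and probes with the family's bases 2 to 7. Also named were the 5 probes most like the mean profile and the 1 most like each member. From each list up to 2 miRNAs with the smallest unadjusted p were named. Differences are db/db minus db/+. Alternatives changed normalization, background, value table, filter, variance model, weights, blocks and left-out arrays. Outliers were not sought, since groups held 3 arrays.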

Additional observations from a re-analysis of the deposited data

How the results depend on the processing

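Of 160 member values under 20 alternatives, 143 kept their direction, 17 changed it, and no member passed; the lowest adjusted p was 0.60. The members that kept their direction throughout were miR-16-2-3p (-0.90 to -0.36), miR-15a-5p (0.22 to 0.84) and miR-195a-5p (0.15 to 0.57). The sign turned for miR-15b-5p with the spike sets as a block (0.15), for miR-16-5p with array weights (0.021), for miR-322-5p with the spike sets as a block (-0.0095), for miR-497a-5p with 75th percentile scaling (-0.0016) and array weights (-0.045), and for miR-503-5p with cyclic loess (0.019), without normalization (0.0028), with the blank median subtracted (0.027) and with array weights (0.0042). Leaving out 1 array at a time gave -0.66 to 0.15 for miR-15b-5p, -0.27 to 0.11 for miR-16-5p, -0.092 to 0.27 for miR-322-5p, -0.091 to 0.37 for miR-497a-5p and -0.19 to 0.15 for miR-503-5p. The cause was not tested. The number of probes passing, 0 as reported, was 1 with 75th percentile scaling, an offset of 16, a pseudocount of 16 on the authors' table or only probes above the blanks on all arrays, 2 with trend and robust variance, and 0 to 3 when 1 array was left out, the 3 without db/db replicate 2; 59 probes had an unadjusted p under 0.05. The 4 partner differences kept their direction with 75th percentile scaling and in the authors' table, but in the latter miR-195a-5p relative to miR-497a-5p was 0.05, miR-15b-5p relative to miR-16-2-3p 0.61 and miR-322-5p relative to miR-503-5p 0.25. The family median ranged from -0.08 to 0.13. Replicate numbers did not pair the arrays (correlations -0.04, -0.0028 and 0.03); with the replicate block 0 probes passed and the family median stayed at 0.0033. Leaving out an array kept the probes tested before. The signal over the blanks limits miR-497a-5p and miR-503-5p most.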
